A study of Caenorhabditis elegans with 12 samples.

Results

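Small RNAs in whole Caenorhabditis elegans larvae were compared between the unprecipitated input libraries of 2 strains, which are 6 of the 12 libraries of the series. The CSR-1 inputs (replicates A, B and C) came from worms of genotype 1xFLAG::CSR-1. The WAGO-1 P3G inputs (replicates A, B and C) came from worms with P3G in WAGO-1::FLAG together with P2G and A3E in WAGO-3, amino acid changes numbered as in the labels. All animals were at the L4 stage and grew at 15 °C on NA22 bacteria, and each input was enriched for small RNA from 500 ng of total RNA. The other 6 libraries were FLAG immunoprecipitates (IPs) of the same strains and served here to class features and to share in the estimate of spread. The tagged protein and the changes in WAGO-1 and WAGO-3 differed together between the strains, and no input of an untagged or unmodified strain was analysed here, so the effects of tag, strain background and amino acid changes cannot be told apart.

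Argonautes are proteins that bind small RNAs and use them to find complementary transcripts. In the worm germline, RNA-dependent RNA polymerases copy target transcripts into short antisense RNAs that begin with a triphosphate, and these are loaded into worm-specific Argonautes. WAGO-1 and WAGO-3 act in silencing of transposons, pseudogenes and other genes, and CSR-1 carries small RNAs against germline-expressed genes. The inputs were treated with an RNA 5′ polyphosphatase, which lets RNAs with a triphosphate enter the library.

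Input libraries held 878241 to 1373120 reads, of which 334088 to 533232 were counted on a feature. Features were 20134 WormBase gene identifiers and 55259 stranded genomic intervals of build ce11. None of the identifiers could be paired with a symbol, so levels at the genes dpf-3, wago-3, wago-1 and csr-1 were not looked up. The genotypes were not checked here, and counts per gene do not show amino acid changes. Intervals were placed by the RefSeq genes of WBcel235 they overlap on either strand, and such an overlap does not tie the reads to the gene. Levels are counts scaled to CPM, a share of the counted reads of each library. CSR-1 input A stood apart from its group: its counts differed from those of CSR-1 inputs B and C by a chi-square per degree of freedom of 2.56 and 1.91, against at most 1.30 for the other replicate pairs.

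The WAGO-1 P3G inputs held a smaller share of reads on intervals. Intervals took 14.3%, 16.3% and 15.6% of the counted reads of CSR-1 inputs A, B and C, and 7.98%, 8.17% and 8.13% of those of WAGO-1 P3G inputs A, B and C. The groups did not overlap, and the means were 15.4% ± 1.01 and 8.09% ± 0.102 (SD, n = 3 each), a ratio of 0.526. Of all reads, intervals made up 6.60% ± 0.0221 for CSR-1 and 2.16% ± 0.0552 for WAGO-1 P3G (SD, n = 3 each), a ratio of 0.328. That ratio is lower because more reads of the WAGO-1 P3G inputs lay on no feature: 72.8%, 72.9% and 74.1%, against 53.8%, 59.3% and 57.7% in the CSR-1 inputs. The nature of the reads on no feature was not analysed here.

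The pool was also spread differently over features. Each library's 10 most abundant features made up 6.54%, 7.26% and 6.90% of its counted reads for CSR-1 inputs A, B and C and 9.75%, 10.2% and 9.45% for the WAGO-1 P3G inputs. With every library thinned to 334088 counted reads, 10983, 10814 and 10950 identifiers had a read in the CSR-1 inputs, against 11581, 11623 and 11710 in the WAGO-1 P3G inputs. More identifiers were therefore seen in the WAGO-1 P3G inputs at equal counted reads. Fewer intervals had at least 10 reads: 531, 553 and 568 for CSR-1 and 379, 386 and 371 for WAGO-1 P3G. Thinning equalised all counted reads, of which the WAGO-1 P3G inputs had fewer on intervals and so more on identifiers. Both counts are therefore not separate from the share of reads on intervals. Across 30 such library measures the exact permutation test gave a 2-sided p of 0.1 for 29, the smallest that 3 libraries against 3 allow, with a Benjamini-Hochberg adjusted value of 0.103. The exception was the number of intervals with at least 1 read, with an exact permutation p of 0.2. Many of the 30 measures are parts or complements of one another, such as interval shares by chromosome or length. The 29 are therefore not separate results.

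**Figure D1:**
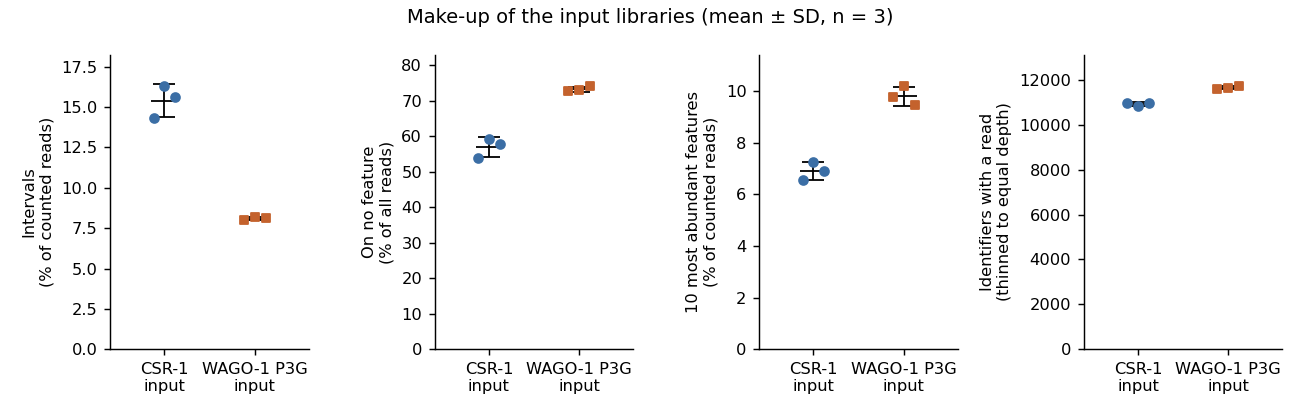
Measures of the make-up of the 6 input libraries, with 1 point per library and the mean ± SD of each group (n = 3): share of counted reads on intervals, share of all reads on no feature, share of counted reads on the 10 most abundant features, and identifiers with a read after thinning to equal depth. The CSR-1 and WAGO-1 P3G inputs do not overlap in any panel.

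Among the gene identifiers, both directions were common. Of 9536 tested, 2023 (21.2%) were higher in the WAGO-1 P3G inputs and 1481 (15.5%) were lower, at a Benjamini-Hochberg adjusted p under 0.05 in edgeR's quasi-likelihood test. At least 4-fold differences numbered 440 higher and 459 lower, and at least 16-fold differences 41 and 67. The median log2 difference over all tested identifiers was 0.09, and its sign was not stable across the ways of scaling. The 2 input groups did not overlap in CPM for 47.6% of the identifiers.

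The direction depended on how libraries were scaled. The composition factors of the fit left the median of all 10822 tested features at a log2 of 0.03, with 19.7% called higher in the WAGO-1 P3G inputs and 18.7% lower, so that 51.3% of the calls were higher. The groups did not overlap in CPM for 48.9% of all tested features. Without CSR-1 input A, 1608 features were higher and 1854 lower of 12904 tested, and 3253 of the 4151 calls made with it were shared. Scaled to all reads, those on no feature included, the median moved to -0.56 and 18.3% of the calls were higher, with 912 higher and 4076 lower. Counted-read totals without the composition factors gave a median of 0.12, with 2312 higher and 1848 lower. Log2 differences and calls below therefore hold for the composition factors of the fit, while CPM are shares of the counted reads.

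Calls were most frequent where levels were high. Of the 229 identifiers with a mean of over 500 CPM in the inputs, 92 were higher, 108 lower and 29 not called. Of the 3466 under 20 CPM, with a median of 23 counts over the 6 inputs, 490 were higher and 198 lower. The most abundant identifier stood at 7230, 7186 and 6112 CPM in CSR-1 inputs A, B and C and at 17309, 18034 and 13351 CPM in WAGO-1 P3G inputs A, B and C. All 3 WAGO-1 P3G libraries lay above all 3 CSR-1 libraries, with a log2 difference of 1.17 ± 0.13 (SE, edgeR adjusted p = 5.58e-08).

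The largest changes of single identifiers were close to presence against absence of reads. WBGene00004453 had 2.47, 3.75 and 5.36 CPM in the CSR-1 inputs and 211.8, 185.6 and 157.7 CPM in the WAGO-1 P3G inputs, a log2 difference of 5.49 ± 0.34 (SE, edgeR adjusted p = 1.40e-12). WBGene00019448 had 2.47, 1.88 and 0 CPM in the CSR-1 inputs and 35.3, 38.9 and 62.0 CPM in the WAGO-1 P3G inputs. It rests on 2 against 47 counts, a ratio of 29.9 with a 95% counting interval of 7.84 to 254. Both were near absent in every CSR-1 input and present in every WAGO-1 P3G input. In the other direction, WBGene00019538 stood at 49.4, 73.1 and 72.4 CPM in the CSR-1 inputs and had no read in the WAGO-1 P3G inputs, at least 22.5-fold lower with a floor of 3 counts over the group. WBGene00022290 likewise stood at 51.9, 43.1 and 67.0 CPM against none, at least 18.1-fold lower. Such identifiers were few: 28 with at least 10 counts over the CSR-1 inputs had 0 in the WAGO-1 P3G inputs, and 16 showed the reverse. Among intervals the same counts were 45 and 2. These counts were not scaled. The CSR-1 inputs held 1311100 counted reads in sum against 1029058, which favours 0 counts in the WAGO-1 P3G inputs.

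Among the intervals, falls outnumbered rises. Of 1286 tested, 50.3% were called: 539 (41.9%) were lower in the WAGO-1 P3G inputs and 108 (8.40%) were higher by the same edgeR test and threshold. At least 4-fold differences numbered 290 lower and 28 higher, and at least 16-fold differences 58 and 4. The median log2 difference was -0.82, with quartiles of -1.89 and 0.27, and the groups did not overlap for 58.6% of the intervals. Fitted and scaled apart from the identifiers, which sets the typical interval near 0 by construction, 253 intervals were higher and 327 lower.

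**Figure D2:**
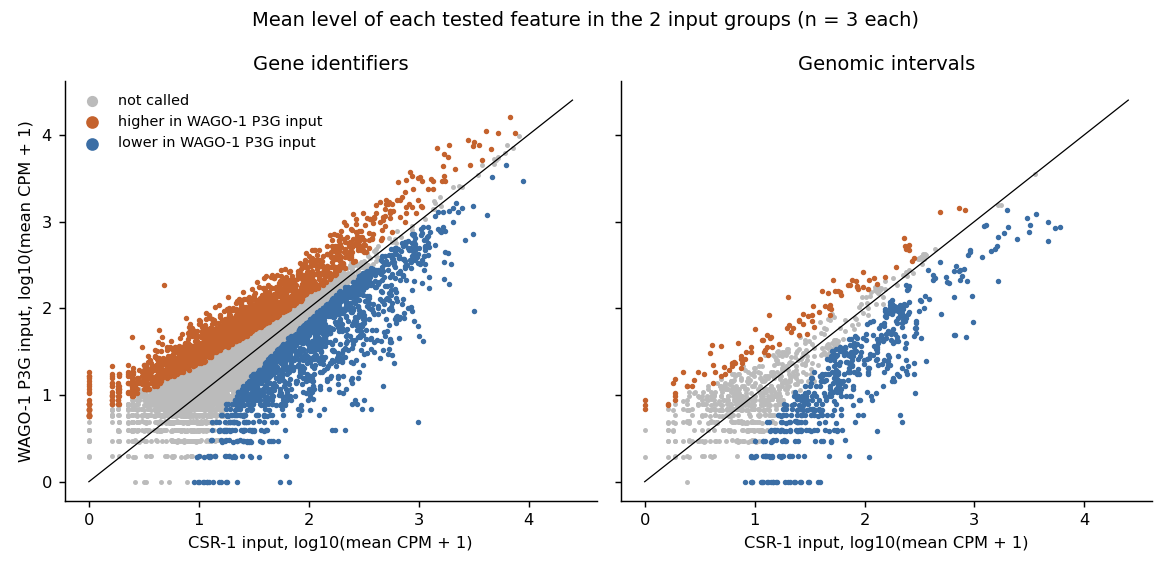
Mean level of each tested feature in the WAGO-1 P3G inputs against that in the CSR-1 inputs (n = 3 each), both as log10(mean CPM + 1), for identifiers and for intervals, with calls coloured by direction and a line of equal level. Of the 35 intervals over 500 CPM, 29 were lower and 3 higher, whereas the identifiers over 500 CPM were spread on both sides with 108 lower and 92 higher.

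The most abundant intervals carried much of the fall. The 20 with the highest mean input level went from 5.49% of counted reads with CSR-1 to 2.24% with WAGO-1 P3G, and all other intervals from 9.90% to 5.85%. Of these 20, 15 were lower, 2 higher and 3 not called, and 13 lay on chromosome V. The 2 higher became 6 when intervals were fitted apart and 1 with all-read totals or past a 1.5-fold limit. V:17132108-17137381 (-), which holds the noncoding RNA gene Y102A5D.22, had 5397, 6573 and 5932 CPM in the CSR-1 inputs and 856, 847 and 907 CPM in the WAGO-1 P3G inputs, a log2 difference of -2.86 ± 0.13 (SE, edgeR adjusted p = 4.58e-15). Every WAGO-1 P3G library was far below every CSR-1 library there. Its neighbour V:17137383-17141676 (-), which holds the microRNA gene mir-257, had 4790, 5815 and 5530 CPM against 862, 835 and 856 CPM (log2 -2.74). The size of this interval, 4294 bp, is far beyond a microRNA, so its reads need not be those of mir-257.

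V:17421682-17428709 (-), which overlaps no RefSeq gene, had 5019, 4685 and 4246 CPM in the CSR-1 inputs and 582, 641 and 583 CPM in the WAGO-1 P3G inputs (log2 -3.03 ± 0.10, SE). The IPs of the same strains differed by a log2 of only 0.02 at this interval (edgeR adjusted p = 0.832), with 1025 to 1177 CPM in the CSR-1 IPs and 1030 to 1082 CPM in the WAGO-1 P3G IPs. IV:913372-921243 (+), which holds F58H7.5, had 4175, 5161 and 4774 CPM against 903, 1116 and 927 CPM in the inputs (log2 -2.34). Under the composition factors of the fit, the fall was not shared by V:11487340-11488176 (+), in T11F9.10. This interval had 3063, 3863 and 3640 CPM in the CSR-1 inputs and 3642, 3727 and 3366 CPM in the WAGO-1 P3G inputs. Its groups overlapped and it was not called (log2 -0.06 ± 0.12, SE, edgeR adjusted p = 0.728). The call depended on scaling. When intervals were fitted apart it was called higher (log2 0.73, edgeR adjusted p = 1.45e-08). With all-read totals it was called lower (log2 -0.66, edgeR adjusted p = 6.70e-05).

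Among intervals of at least 20 CPM whose groups did not overlap, the largest fall was at III:6630737-6631713 (+), which overlaps no RefSeq gene. It had 93.9, 110.6 and 120.6 CPM in the CSR-1 inputs and 0, 0 and 2.82 CPM in the WAGO-1 P3G inputs, 142 counts against 1, a ratio of 111 with a 95% counting interval of 19.7 to 4433. X:16234996-16236011 (+), in the protein-coding gene F23A7.5, fell from 96 counts to 1 (ratio 75.3, interval 13.2 to 3007). These 2 intervals were almost without reads in the WAGO-1 P3G inputs. II:13260794-13261023 (+), part of the long noncoding RNA gene Y48C3A.1, had 232, 231 and 198 CPM against 5.88, 2.99 and 2.82 CPM (log2 -5.89 ± 0.45, SE, edgeR adjusted p = 8.13e-11). V:9650482-9651169 (+), in no RefSeq gene, had 212, 218 and 196 CPM against 2.94, 5.99 and 5.63 CPM (log2 -5.49 ± 0.33, SE). All 4 were also lower in the WAGO-1 P3G IPs than in the CSR-1 IPs, by a log2 of -2.82, -2.95, -1.48 and -2.63. The other named falls also rest on few counts in the WAGO-1 P3G inputs. They were 60 against 1 at IV:2481515-2481606 (-), and 170 against 3 at I:86089-86176 (-), in the overlapping genes mtm-10 and Y48G1C.6. Between the IPs these too were lower with WAGO-1 P3G, by a log2 of -1.05 and -3.39.

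The 6 largest rises were smaller than the 6 largest falls. V:14761618-14764280 (+), in the pseudogene Y50E8A.14, had 22.2, 11.3 and 24.1 CPM in the CSR-1 inputs and 120.6, 155.6 and 129.6 CPM in the WAGO-1 P3G inputs, a log2 difference of 2.79 ± 0.26 (SE, edgeR adjusted p = 3.13e-09). A second interval in the same pseudogene, V:14764611-14765406 (+), rose by a log2 of 2.57 ± 0.37 (SE). Both were nearly absent from the CSR-1 IPs and strong in the WAGO-1 P3G IPs, the first with 2.44 to 4.08 CPM against 252 to 298 CPM. III:971060-971258 (+), in the pseudogene R06B10.1, rose by a log2 of 3.49 ± 0.56 (SE) on 4 against 38 counts. X:17074758-17074813 (-) and II:2151236-2151395 (-), in no RefSeq gene, rose by a log2 of 2.58 ± 0.46 and 2.55 ± 0.42 (SE). IV:6189598-6189640 (-), which covers part of the piRNA gene 21ur-9379, rose by a log2 of 1.97 ± 0.52 (SE, edgeR adjusted p = 0.00422), and the IPs were not called different there (log2 -0.39, adjusted p = 0.205).

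Runs of neighbouring intervals on 1 strand held some of the strongest changes. Joining tested intervals at most 2000 bp apart, a limit chosen after the values were seen, gave 150 runs with 444 intervals. In 50 runs every interval was lower, in 6 every interval was higher, in 7 there were calls in both directions and in 30 none was called. Beside these counts, 41.9% of all tested intervals were lower and 8.40% higher. How many such runs these shares alone would give was not tested. V:17132108-17143636 (-) summed to 12897, 15822 and 14749 CPM over 3 intervals in the CSR-1 inputs and to 2447, 2457 and 2555 CPM in the WAGO-1 P3G inputs. V:5179696-5191238 (+), at C03A7.13 and C03A7.2, had 7 of 7 intervals lower, with sums of 5820, 7078 and 6377 CPM against 2277, 2296 and 2124 CPM. The run of rises at Y50E8A.14, V:14760787-14765406 (+), had 4 of 4 intervals higher, from a mean sum of 34.4 to 246 CPM. The runs with the most intervals held 12 each. At V:8825452-8845311 (+), 8 of the 12 were lower and 0 higher, and at II:2151236-2164772 (-), 5 were lower and 2 higher.

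Intervals of 1 exact length formed families, some of which had nearly uniform differences. Equal lengths at many places may be copies of 1 element, whose reads the counting could have split or placed arbitrarily, so the members of such a family are not independent and their origin is uncertain. All 21 tested intervals of 1611 bp, on 6 chromosomes, were lower, with log2 differences of -1.82 to -1.24, and their summed level was 3046 ± 164 CPM in the CSR-1 inputs and 1097 ± 26.5 CPM in the WAGO-1 P3G inputs (SD, n = 3 each). The SD among the 21 log2 differences, 0.18, was below their mean SE of 0.24. All 8 intervals of 1286 bp were lower, from a summed 1060 to 301 CPM. Of the 46 intervals of 1242 bp, 37 were lower, from a summed 4992 to 2818 CPM, a count that dropped to 24 with DESeq2 on the inputs alone, to 15 past a 1.5-fold limit and to 1 when intervals were fitted apart.

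Other lengths differed in direction or within themselves. The 12 intervals of 2337 bp summed to 2919 ± 241 CPM in the CSR-1 inputs and 3474 ± 137 CPM in the WAGO-1 P3G inputs (SD, n = 3 each), with 1 called higher and 0 lower. That near absence of calls depended on scaling, with 9 lower under all-read totals and 12 higher when intervals were fitted apart. Of the 7 intervals of 93 bp, 6 were higher, and the summed level went from 232 ± 33.2 to 697 ± 38.8 CPM (SD, n = 3 each). None of the 11 intervals of 261 bp was called. The 6 intervals of 152 bp ranged from a log2 of -2.91 to 0.80, with an SD of 1.78 against a mean SE of 0.52, so an equal length did not always go with an equal difference.

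**Figure D3:**
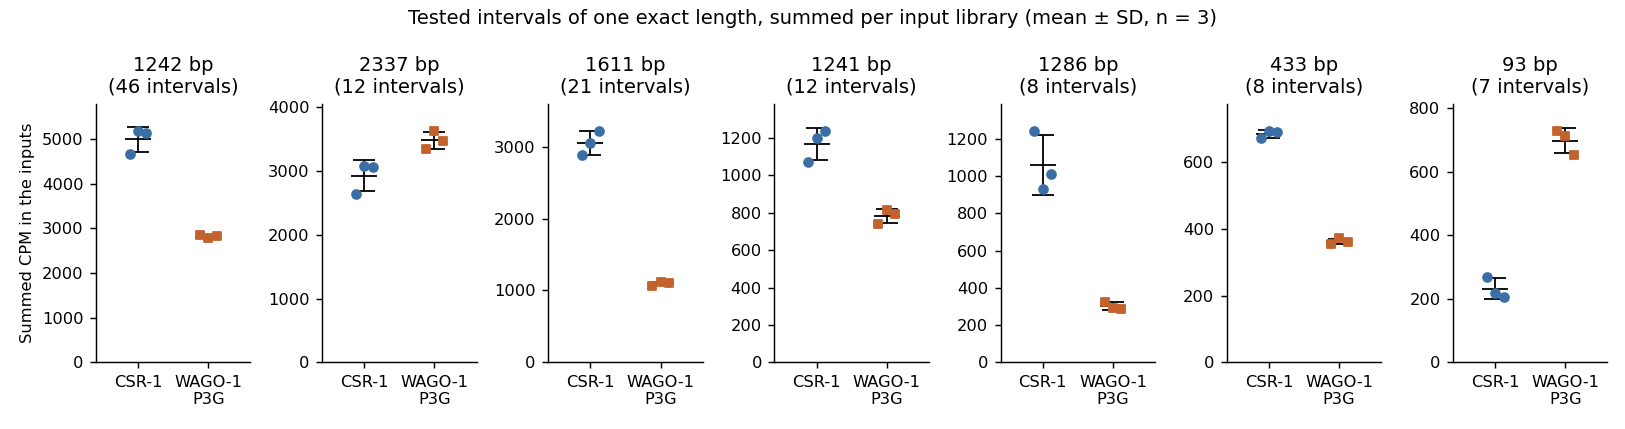
Summed level (CPM) of the intervals of 1 exact length in each of the 6 inputs, with 1 panel for each of the 7 most abundant lengths and the mean ± SD of each group (n = 3). The sums for 1611, 1286 and 1242 bp were lower in all 3 WAGO-1 P3G inputs than in all 3 CSR-1 inputs, as were those for 1241 and 433 bp, and the sums for 93 and 2337 bp were higher.

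Falls differed in number by chromosome and by length. On chromosome V, 150 of 265 tested intervals (56.6%) were lower and 14 higher, beside 41.9% lower and 8.40% higher of all intervals. The 150 and 14 became 97 and 41 when intervals were fitted apart, and the 14 became 7 with all-read totals. The share of counted reads on chromosome V intervals went from 6.95% to 2.88%. On chromosome II, 58 of 195 were lower and 28 higher, with a share of 1.69% against 1.17%. Chromosome arms and centres were similar, with 364 of 882 lower in arms and 175 of 404 in centres. By length, 206 of 326 intervals of 1001 to 3000 bp were lower and 14 higher, against 25 lower and 18 higher of 111 intervals up to 100 bp. Reads on intervals over 3000 bp went from 6.82% to 2.70% of counted reads, while those on intervals up to 100 bp stood at 0.374% and 0.404%. The median log2 was 0.25 up to 100 bp, -0.28 at 101 to 300 bp, -0.93 at 301 to 1000 bp, -1.18 at 1001 to 3000 bp and -0.86 over 3000 bp. The median count over the 6 inputs also differed by length, from 25 at 101 to 300 bp to 362 over 3000 bp. By chromosome it ran from 27.5 on X to 87 on V. The part of the median count in the calls was not tested.

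By gene class, 263 of 577 intervals in no RefSeq gene were lower and 56 higher, as were 208 and 29 of 525 in protein-coding genes and 53 and 17 of 119 in pseudogenes. The shares lower, 45.6%, 39.6% and 44.5%, lay near the 41.9% of all intervals. Intervals at structural or short RNA genes had few calls, 7 lower and 5 higher of 52, beside 41.9% and 8.40% of all intervals. Their median log2 was 0.26. Their median of 21 counts over the 6 inputs was the lowest of the gene classes, and its part in the few calls was not tested. Of the 52, 28 overlapped piRNA genes, which encode the small RNAs bound by the Argonaute PRG-1, and 4 were higher and 2 lower. At tRNA pseudogenes lay 19, with 0 higher and 4 lower.

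**Figure D4:**
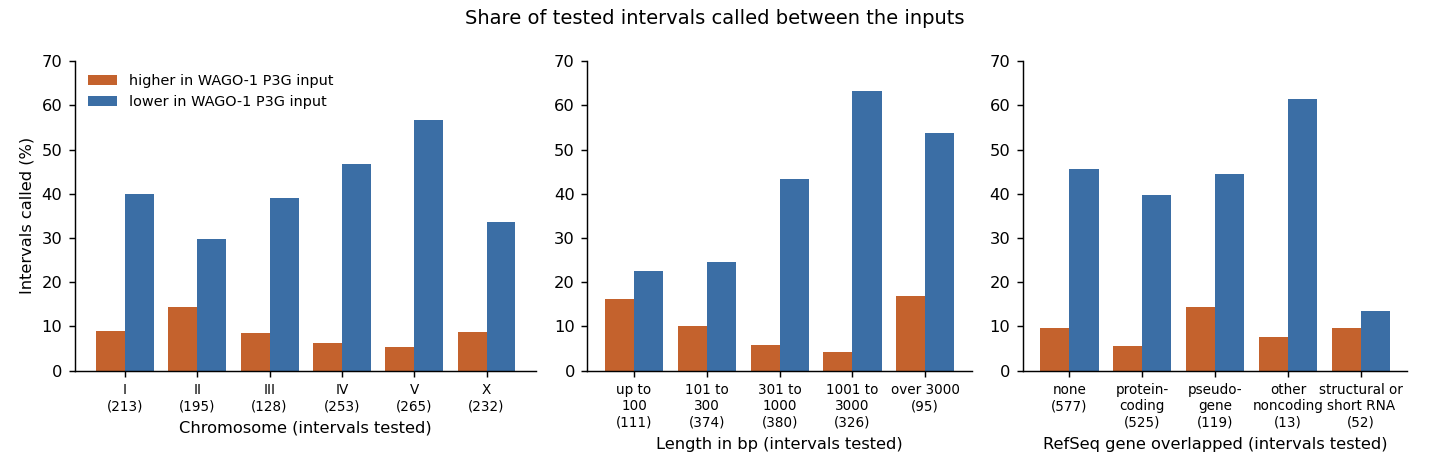
Percent of tested intervals called higher and called lower in the WAGO-1 P3G inputs, by chromosome, length and gene class. Falls exceed rises in every class shown, by 56.6% to 5.28% on chromosome V and by 13.5% to 9.62% at structural or short RNA genes.

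Lists of genes by role could be followed only through intervals. Of 6 intervals at genes of small RNA synthesis and RNA interference, 1 was lower and 1 higher, beside 41.9% and 8.40% of all intervals. The fall was at eri-6, whose product is a helicase needed for the endogenous small RNAs of ERGO-1: I:4467100-4467296 (+) had 42.0, 46.9 and 42.9 CPM in the CSR-1 inputs and 11.8, 5.98 and 5.63 CPM in the WAGO-1 P3G inputs (log2 -2.58 ± 0.41, SE, edgeR adjusted p = 1.64e-05). The rise was at simr-1, a Tudor domain gene of small RNA amplification, where I:5980182-5981873 (-) had 887, 776 and 823 CPM against 1350, 1425 and 1344 CPM (log2 0.65 ± 0.09, SE). With all-read totals the simr-1 difference was 0.04 and was not called. Other tested intervals of these genes were not called. At eri-6, I:4463719-4463753 (+) and I:4465643-4465706 (+) had a log2 of -1.25 and -0.82 (edgeR adjusted p = 0.0859 and 0.0990). At simr-1, I:5981856-5982780 (-) had a log2 of 0.84 (edgeR adjusted p = 0.386). The single Argonaute interval, at wago-5, was not called.

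Of 5 intervals at meiotic prophase genes, 4 were lower, beside 41.9% of all intervals. Of these, 3 lay at zim-1, which encodes a zinc finger protein of meiotic pairing centres, and 1 at brc-1, a 1242 bp interval of a repeated length and of uncertain origin. The zim-1 interval IV:10549140-10549474 (+) had 173, 148 and 147 CPM in the CSR-1 inputs and 61.8, 38.9 and 47.9 CPM in the WAGO-1 P3G inputs (log2 -1.73 ± 0.22, SE, edgeR adjusted p = 4.38e-07). The 3 zim-1 intervals share 1 gene and are not separate evidence, so the count rests in effect on 1 gene. The only ribosomal protein interval tested, at rpl-42, had 19.8, 39.4 and 37.5 CPM against 76.5, 59.9 and 76.1 CPM (log2 1.03 ± 0.30, SE, edgeR adjusted p = 0.00815). Without CSR-1 input A its log2 was 0.74 (adjusted p = 0.0721), and with all-read totals 0.44.

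Among large gene families, intervals at chemoreceptor genes numbered 38, with 13 lower and 3 higher, beside 41.9% and 8.40% of all intervals. Of the 13, 5 were intervals of 1611 or 1242 bp, repeated lengths of uncertain origin. The interval in srh-171, a member of a chemoreceptor family, had 133, 156 and 158 CPM in the CSR-1 inputs and 35.3, 15.0 and 22.5 CPM in the WAGO-1 P3G inputs (log2 -2.70 ± 0.28, SE). Of 15 at F-box and MATH or BTB genes, families of substrate adaptors for ubiquitin ligases, 5 were lower and 1 higher. The fall at fbxa-139 was a log2 of -3.40 ± 0.49 (SE). At bath-29, neighbouring intervals on 1 strand differed in direction: II:3354125-3356987 (-) rose by a log2 of 0.87 ± 0.10 (SE) and II:3351580-3353739 (-) had a log2 of -1.23 ± 0.14 (SE, edgeR adjusted p = 1.15e-07), from a mean of 682 to 308 CPM. The bath-29 interval outside the naming rule was chosen after its values were seen. At nhr-15, of the nuclear hormone receptor family, V:319141-319614 (+) had means of 126 and 24.3 CPM in the CSR-1 and WAGO-1 P3G inputs (log2 -2.46 ± 0.27, SE), and the other receptor interval was not called.

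Marker genes of the cell types in a whole larva gave little to follow. The neuron, sperm and oocyte lists had 1 tested interval each and the hypodermis and cuticle list 2, none of them called, and muscle and intestine had 0. A difference in tissue make-up between the strains was therefore not tested, and in whole animals fewer cells of a type cannot be told apart from less small RNA per cell.

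The IPs gave a class to each feature from libraries other than the inputs, although the labels do not say whether input and IP of a letter came from 1 extract. Between the IPs, 3625 identifiers (38.0%) were higher with WAGO-1 P3G and 4638 (48.6%) lower, as were 74.3% and 14.2% of intervals. In the inputs, 21.2% of all tested identifiers were higher and 15.5% lower. The 3625 higher in the WAGO-1 P3G IPs had 1162 higher and 537 lower in the inputs, with a median log2 of 0.56, and the 4638 higher in the CSR-1 IPs had 488 and 765, with a median of -0.16. The 1273 not called between the IPs had 373 higher and 179 lower, with a median of 0.56 like the WAGO-1 P3G class, so the 2 classes did not stand apart in their medians. The extremes of the classes did differ in count. Of the 555 identifiers at least 16-fold higher in the WAGO-1 P3G IPs, 237 were higher in the WAGO-1 P3G inputs and 0 lower. Their median log2 was 1.35, at a median of only 18 counts over the 6 inputs. The filter used all 12 libraries, so IP reads alone could carry an identifier into the test. At so few input counts a fall could rarely be called, so the 0 lower does not show that falls were absent. The part of the filter in these counts and medians was not tested. Of the 478 at least 16-fold higher in the CSR-1 IPs, 4 were higher and 218 lower, with a median of -0.58. The 237 became 105 with DESeq2 on the inputs alone and 124 with a filter of at least 10 counts in 3 inputs, which test fewer identifiers, and the 218 became 82 past a 1.5-fold limit and 383 with all-read totals.

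Intervals did not follow the same order. Of the 956 higher in the WAGO-1 P3G IPs, 89 were higher in the WAGO-1 P3G inputs and 354 lower, with a median log2 of -0.62. Among the 128 at least 16-fold higher in those IPs, rises outnumbered falls, with 39 higher, 1 lower and a median of 1.24. The 39 became 16 with DESeq2 on the inputs alone. These 128 had a median of 14 counts over the 6 inputs, where a fall could likewise rarely be called. Of the 147 intervals not called between the IPs, 108 were lower in the WAGO-1 P3G inputs and 5 higher. Their median of -2.53 lay below the -0.86 of the 183 intervals higher in the CSR-1 IPs. Median levels of the 147 were 20.1 CPM in the CSR-1 inputs and 5.76 CPM in the WAGO-1 P3G inputs. As for the identifiers, the part of the filter in these medians was not tested. These classes compare levels between the IPs, not recovery over input. At V:17421682-17428709 (-), not called between the IPs, the log2 of IP over input was -1.64 for CSR-1 and 1.41 for WAGO-1 P3G.

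**Figure D5:**
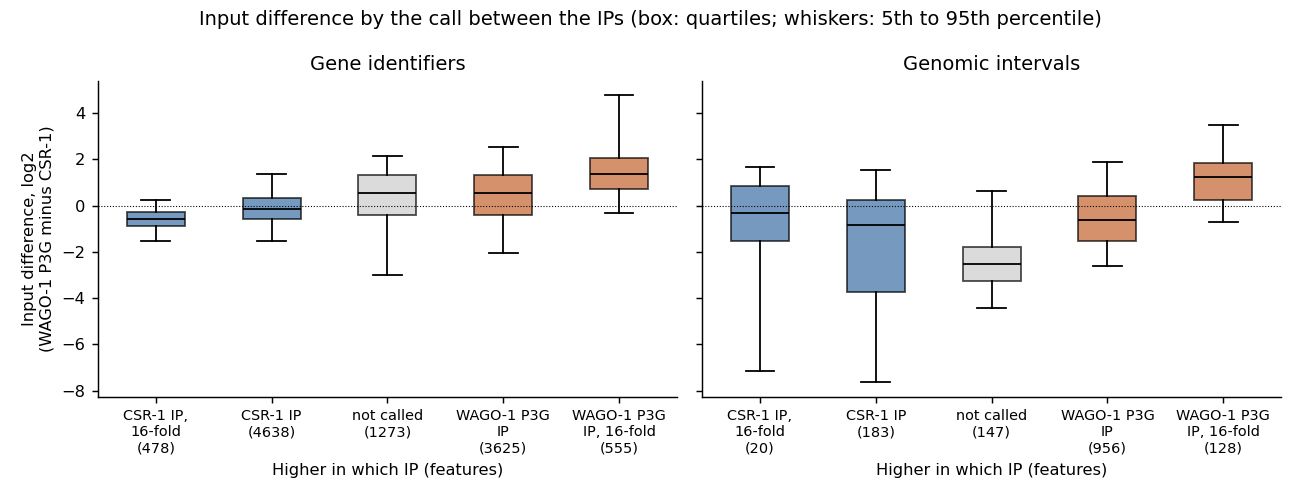
Input difference (log2, WAGO-1 P3G input minus CSR-1 input) of identifiers and intervals by their call between the IPs, with boxes at the quartiles, a line at the median and whiskers from the 5th to the 95th percentile. The intervals not called between the IPs have a median of -2.53, and the identifiers at least 16-fold higher in the WAGO-1 P3G IPs a median of 1.35.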

How the data were processed

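Small RNA reads of 6 input and 6 IP libraries were analysed from 1 deposited table of raw counts, which the authors made without normalization. HTSeq 0.11.2, cutadapt 2.3, Bowtie 1.2.3, SAMtools 1.9 and the build ce11 are named in the submitters' processing notes, without roles. Aligner and strand settings, the counting of multiply aligned reads and the origin of the intervals were not given in the sources used here. Groups follow the titles, sample names and antibody field. The opening text of some descriptions contradicts them. Reads on no feature and ambiguous reads were left out of library sizes, 53.8% to 74.1% and under 0.1% of the reads of an input.

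Counts were filtered with filterByExpr, scaled with TMM factors and tested with edgeR 4.0.16 in R 4.3.3 (quasi-likelihood F test, 12 libraries, a mean per group, 8 residual degrees of freedom). Benjamini-Hochberg adjustment ran over 10822 features, called under 0.05. The SE is the size of the log2 difference over the square root of F. Nothing in the labels ties replicates to separate cultures, so p-values reflect only the spread among these libraries, which may be technical. Counting intervals are exact binomial and cover counting error only.

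The fit was also run on simulated data with 10566 features, identifiers and intervals together, and inputs set equal except for the changed features. There 100 features were changed 2-fold and 100 were changed 4-fold, evenly up and down, all at 20 CPM or more. The fit recovered 56% of the 2-fold and 92% of the 4-fold changes, and 5.73% of the calls were false. In the data 38.4% of features were called and intervals mostly fell, so these rates need not hold. Features under 20 CPM were not changed in the simulation. Named features were the called ones of at least 20 CPM without overlap between the groups, with the largest changes (6 intervals each way), the 5 most abundant intervals, and up to 2 called list members per direction. Identifiers were held to 2 each way because no symbols pair with them. Members and lists were chosen with earlier results of these data known. Alternatives covered scaling, filters, tests, depth, pairing and libraries left out.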

Additional observations from a re-analysis of the deposited data

How the results depend on the processing

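Called identifiers, 2023 higher and 1481 lower, became 864 and 3384 with all-read totals, 1235 and 872 with DESeq2 on the inputs alone, and 1222 and 851 past a 1.5-fold limit. Leaving out 1 library at a time gave 1516 to 2054 higher and 1275 to 1513 lower. Called intervals, 108 higher and 539 lower, became 67 higher with the inputs alone, 48 with all-read totals, 55 higher and 334 lower with DESeq2 on the inputs alone, 71 higher with at least 10 counts in 3 inputs, 356 lower when thinned, 253 higher and 327 lower when fitted apart, and 69 higher past 1.5-fold. Leaving out 1 library gave 92 to 101 higher and 469 to 579 lower. The median log2 of identifiers, 0.09, was 0.18 with counted-read totals, -0.50 with all-read totals, 0.16 with median-of-ratios factors and with DESeq2, 0.029 with DESeq2 on the inputs alone, -0.0054 with the inputs alone, 0 with no filter, 0.022 with the stricter filter, 0.025 when thinned, 0.016 when fitted apart, and 0.05 to 0.14 with 1 library left out. The median of intervals, -0.82, was -0.73, -1.41 and -1.20 with counted-read totals, all-read totals and DESeq2 on the inputs alone, -1.23 with the inputs alone, 0 with no filter, -1.21 with the stricter filter, -1.09 when thinned, -0.029 when fitted apart, and -1.14 to -0.66 with 1 library left out. The interval share ratio was 0.328 of all reads, and 0.508 to 0.541 with 1 input left out. V:11487340-11488176 (+) reversed to 0.73 when fitted apart. Leaving out a library also changed which features passed the filter. The cause was not tested otherwise.

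Deviations of inputs with the same replicate letter were only weakly correlated (0.024, 0.019 and 0.054). These values lay above those of all pairs with different letters (-0.039 to 0.014), so a weak pairing by letter was not excluded. With the replicate block, 2176 features were higher and 2118 lower in the fit of 12 libraries, and with the replicate block in the inputs alone 66 intervals were higher, with medians of -1.23 for intervals and -0.0076 for identifiers. Low counts limit the rest: intervals under 20 CPM had a median of 18.5 counts over the 6 inputs.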
